A study of Pinellia ternata with 6 samples.

Results

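In a de novo transcriptome of the medicinal aroid Pinellia ternata, 8 small clusters of related transcripts each held a sister unigene with more transcript in the octoploid T2 line and another with more in the T2Plus line, made from it by chromosome doubling. They were taken by a fixed rule from 62591 unigenes in 60913 clusters. Isoform values were summed per unigene, and a cluster was the part of the Trinity name up to its "c" number (TRINITY_DN7915_c0 holds TRINITY_DN7915_c0_g1 and TRINITY_DN7915_c0_g2, and the prefix TRINITY is left out from here on). A unigene was taken as T2Plus-biased when log2 of (T2Plus mean + 1)/(T2 mean + 1) was at least 1.5, and as T2-biased when it was at most -1.5, with a mean of at least 5 FPKM (fragments per kilobase of transcript, scaled to the depth of the library) in its higher line. A cluster qualified when it held a unigene of each kind. Because these values chose the 16 members, their line means and log2 changes are given as a description and carry no test.

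Of the 60913 clusters, 1594 held at least 2 unigenes, 3272 unigenes in all, and in 528 of them at least 2 unigenes reached the floor of 5 FPKM. Only those 528 could qualify, and the 8 that did made up 1.52% of them. The table analysed holds 65535 isoforms in no order of name and does not cover the whole assembly, and sisters or isoforms of a cluster can be missing from it. Sister numbers were skipped in 3 of the 8 clusters (g1 of DN1043_c1, g2 of DN31422_c0 and g1 of DN59745_c0), and every cluster sum below covers only the unigenes at hand.

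RNA was sequenced from seedlings of both lines 30 days after planting, with 3 samples per line and 5 seedlings pooled for the extraction. The T2 line is a natural octoploid line (8x, 2n = 104), which the study put through tissue culture to free it of viruses and bacteria. The T2Plus line is its colchicine-doubled derivative (16x, 2n = 208), raised from suspension-cultured cells. For aseptic seedlings, petioles were sterilized with ethanol and mercury chloride and grown on supplemented medium, a step described without naming a line. Beyond colchicine and suspension culture, no treatment is named that set the lines apart. The study calls the replicates independent and biological, while the sources used here do not say whether each had its own pool of seedlings, nor how many doubling events the T2Plus line goes back to. Doubling therefore cannot be told apart from other features of a derived line, such as its passage through suspension culture.

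Trinity places transcripts that share sequence in 1 cluster and numbers separate "genes" within it. Sister unigenes of 1 cluster can therefore be copies of a gene, alleles, homeologs from the genome sets of a polyploid, or splice forms and fragments of 1 gene, and the name does not say which. In polyploids, homeologs of a gene are known to contribute unequally to the total transcript, and the balance can differ between tissues and between ploidy levels. Reads from stretches that sisters share have to be divided between them by an estimate. An error in the division moves the sisters in opposite directions and leaves the sum of their reads. The sum of their FPKM stays the same only where the sisters are of like length. How much this enters the values below was not tested. In bulk seedlings, fewer cells of a type and less RNA per cell cannot be told apart.

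T2 replicate 2 stood somewhat apart from the other samples. By the study's counts it had the most clean reads, yet it had the fewest unigenes above 0. Unigenes above 0 numbered between 28177 and 33997 per sample, and the value of 1 read, relative to T2 replicate 1, lay between 0.740 in T2 replicate 2 and 1.12 in T2 replicate 3. The 100 most abundant unigenes took 19.5% of the summed FPKM in T2 replicate 2 and 14.7% to 15.8% in the other samples. As a check of the tissue, both lists below were drawn from the part of the study's annotation at hand, so they cover only a share of such transcripts. None of the 27 unigenes annotated as chloroplast proteins was at 0 throughout. They took 0.745% to 0.882% of the summed FPKM in T2 and 0.558% to 0.673% in T2Plus. Unigenes whose best match lay outside green plants, 43 of which 5 were at 0 throughout, took 0.151% to 0.156% in T2 and 0.160% to 0.165% in T2Plus. For both lists the lines did not overlap, and the part of these differences in the sister values was not tested.

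Names were at hand for only 457 unigenes, and the only pair among them was DN7915_c0, whose sisters were both matched to AAA-ATPases. These enzymes use the energy of ATP to unfold or remodel other proteins, and both sisters carried the AAA domain and the AAA-associated domain that marks a plant family of membrane-bound members. DN7915_c0_g1 was matched to HYPER-SENSITIVITY-RELATED 4 of Arabidopsis, a protein named after the hypersensitive response, the local cell death by which plants contain pathogens. DN7915_c0_g2 was matched to an Arabidopsis protein known only as AAA-ATPase At3g28580.

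DN7915_c0_g1 stood at 13.3, 13.1 and 14.7 FPKM in T2 replicates 1, 2 and 3 and at 1.68, 2.16 and 1.85 FPKM in the T2Plus replicates. DN7915_c0_g2 stood at 0.639, 0.810 and 0.723 FPKM in T2 and at 12.9, 11.9 and 9.60 FPKM in T2Plus. For neither sister did the lines overlap, and the sister that made up nearly all of the transcript in one line was the minor one in the other. The means were 13.7 ± 0.860 and 1.90 ± 0.243 FPKM (SD, n = 3 per line) for DN7915_c0_g1, a log2 change of -2.34. For DN7915_c0_g2 they were 0.724 ± 0.0855 and 11.5 ± 1.71 FPKM, a log2 change of 2.85.

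The total of this pair was nearly the same in both lines. Summed, it held 13.9, 13.9 and 15.4 FPKM in the T2 samples and 14.6, 14.0 and 11.4 FPKM in the T2Plus samples, with means of 14.4 ± 0.852 and 13.4 ± 1.69 FPKM. The sums overlapped, while the share of DN7915_c0_g2 in the pair was 5.04% ± 0.691 in T2 and 85.7% ± 2.51 in T2Plus. The replicates were tight, with a coefficient of variation in the higher line of 6.29% for DN7915_c0_g1 and 14.9% for DN7915_c0_g2, against a median of 35.8% over all 19964 unigenes at the floor.

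The widest exchange was in DN31422_c0, where neither sister was named in the annotation at hand. DN31422_c0_g4 was listed at 0.304, 0 and 0 FPKM in T2 and at 36.2, 47.0 and 45.3 FPKM in T2Plus, with means of 0.101 and 42.9 ± 5.80 FPKM and a log2 change of 5.32. That change stood at rank 233 of the 19964 unigenes at the floor when ordered from the most T2Plus-biased. DN31422_c0_g3 held 35.4, 7.93 and 23.3 FPKM in T2 and was listed at 0 in every T2Plus sample, so no fold is given. Each of the pair was thus near or at 0 in the line where its sister was abundant, in all 6 samples.

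A further sister of DN31422_c0 was no member and held most of the cluster's transcript. DN31422_c0_g1 stood at 93.7, 158 and 69.8 FPKM in T2 and at 73.1, 52.4 and 93.1 FPKM in T2Plus, so the lines overlapped, with a log2 change of -0.55. With it, the cluster held 129 ± 36.2 FPKM in T2 and 116 ± 20.3 FPKM in T2Plus, and the sums overlapped too. The 2 members alone made 22.3 FPKM of that sum in T2 and 42.9 FPKM in T2Plus.

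DN1043_c1 was the most abundant pair, and the only one of the 8 in which the same sister led in both lines. DN1043_c1_g3 stood at 43.9, 55.6 and 32.6 FPKM in T2 and at 126, 141 and 166 FPKM in T2Plus, a log2 change of 1.69. DN1043_c1_g2 stood at 17.3, 25.1 and 18.7 FPKM in T2 and at 3.27, 4.38 and 8.77 FPKM in T2Plus, a log2 change of -1.72. Neither sister's samples overlapped between the lines. The leading sister's share of the pair was 68.1% ± 4.17 in T2 and 96.5% ± 1.32 in T2Plus.

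Here the sum was not kept. It was 64.4 ± 14.9 FPKM in T2 and 150 ± 23.0 FPKM in T2Plus, 2.33 times as much, and every T2Plus sum lay above every T2 sum. The gain of the leading sister, from a mean of 44.0 to 145 FPKM, was much larger than the loss of DN1043_c1_g2, from 20.4 to 5.48 FPKM.

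In DN66_c1 the sisters ended close to each other in T2Plus. DN66_c1_g2 stood at 15.4, 28.4 and 14.2 FPKM in T2 and at 6.52, 4.72 and 5.50 FPKM in T2Plus, a log2 change of -1.63. DN66_c1_g3 stood at 2.26, 1.01 and 2.04 FPKM in T2 and at 8.06, 8.50 and 6.16 FPKM in T2Plus, a log2 change of 1.63. The lines did not overlap for either, yet the T2Plus-biased sister held only 57.5% ± 6.03 of the pair in T2Plus, against 9.58% ± 5.32 in T2. The sum was 21.1 ± 7.20 FPKM in T2 and 13.2 ± 1.46 FPKM in T2Plus, with every T2Plus sum below every T2 sum and a log2 change of -0.64. A further sister, DN66_c1_g1, was listed at 0 in all 6 samples.

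DN3327_c0 was a weakly expressed pair whose sisters also exchanged the lead. DN3327_c0_g1 stood at 9.40, 11.6 and 7.69 FPKM in T2 and at 0, 5.13 and 2.54 FPKM in T2Plus, a log2 change of -1.57. DN3327_c0_g2 stood at 0.933, 0.686 and 2.10 FPKM in T2 and at 5.19, 6.20 and 11.9 FPKM in T2Plus, a log2 change of 1.97. The samples did not overlap for either sister, and the sum was 10.8 ± 1.30 FPKM in T2 and 10.3 ± 4.70 FPKM in T2Plus. The share of DN3327_c0_g2 ranged widely within T2Plus, at 100%, 54.7% and 82.4% of the pair, and stood at 9.03%, 5.59% and 21.4% in T2.

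**Figure D1:**
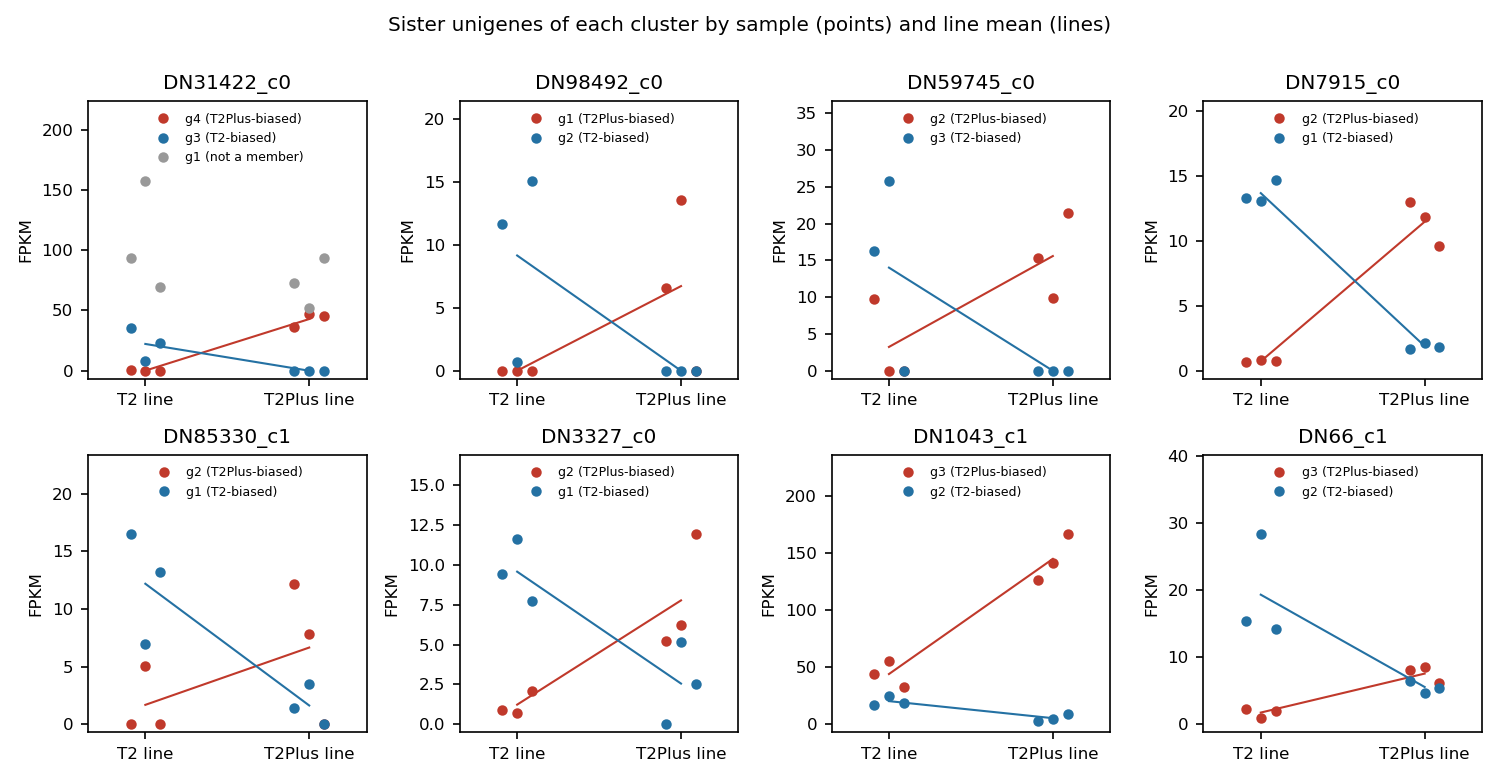
FPKM of the sister unigenes in the 8 clusters, 1 panel per cluster with its own linear axis, with a point for each sample (replicates 1, 2 and 3 from left to right) and a line joining the means of each member. In all panels but DN1043_c1 the lines cross, and in DN31422_c0, DN59745_c0 and DN98492_c0 a member lies at 0 in every sample of one line.

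Where these values were low they may have rested on few reads. Where reads are not divided between transcripts, the FPKM of a unigene moves in steps of 1 read. With sample depth taken into account, the 6 values of DN3327_c0_g2 were whole multiples of a step within a tolerance of 0.15. These multiples were 1, 1, 2, 6, 6 and 12. For DN66_c1_g3 the corresponding multiples were 5, 3, 4, 19, 17 and 13, and for the other members no such multiples are given. If the step is a single read, the T2 values of DN3327_c0_g2 came from as few as 1 or 2 reads.

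In the last 3 clusters samples without any transcript of the pair, or members that overlapped, made the exchange less clear. DN59745_c0_g2 was listed at 9.70, 0 and 0 FPKM in T2 and at 15.4, 9.91 and 21.5 FPKM in T2Plus, a log2 change of 1.97. DN59745_c0_g3 was listed at 16.2, 25.8 and 0 FPKM in T2 and at 0 in every T2Plus sample. T2 replicate 3 thus held neither sister, and the T2 samples of DN59745_c0_g3 reached down to the T2Plus level of 0. The sum of 17.2 ± 14.9 FPKM in T2 spread from 0 to 25.9 FPKM and covered the T2Plus sum of 15.6 ± 5.79 FPKM.

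DN85330_c1_g1 stood at 16.5, 6.94 and 13.2 FPKM in T2 and at 1.46, 3.47 and 0 FPKM in T2Plus, a log2 change of -2.32 with no overlap. Its sister DN85330_c1_g2 was listed at 0, 5.09 and 0 FPKM in T2 and at 12.2, 7.81 and 0 FPKM in T2Plus, a log2 change of 1.51 with overlap. T2Plus replicate 3 held neither sister. The sum was 13.9 ± 2.31 FPKM in T2 and 8.31 ± 7.29 FPKM in T2Plus, and overlapped.

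DN98492_c0_g1 stood at 6.61, 13.6 and 0 FPKM in T2Plus and was listed at 0 throughout T2. DN98492_c0_g2, the only member with 2 isoforms, stood at 11.7, 0.697 and 15.1 FPKM in T2 and was listed at 0 in every T2Plus sample. Of its isoforms, i1 was seen in all 3 T2 samples and i2 in T2 replicate 3 alone, at 7.22 FPKM. T2Plus replicate 3 again held neither sister, and the sums of 9.17 ± 7.54 and 6.74 ± 6.80 FPKM overlapped.

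Among the 16 members, 13 had no overlap between the samples of the lines, 6 of the 8 T2Plus-biased and 7 of the 8 T2-biased sisters. Over all 19964 unigenes at the floor the share without overlap was 34.5% (16.7% with T2Plus above and 17.9% with T2Plus below). Since the rule took large differences between the same means, nothing is read from that contrast. Both sisters were free of overlap in 5 clusters, DN1043_c1, DN31422_c0, DN3327_c0, DN66_c1 and DN7915_c0. Only 7 members were above 0 in every sample, 4 were at 0 in a whole line, and 7 were listed at 0 in some samples of a line, DN59745_c0_g3 and DN98492_c0_g1 being in both of the latter counts.

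limma was fitted to the 28536 unigenes that reached 1 FPKM in 3 or more samples, 13 of the 16 members among them. Called, at a Benjamini-Hochberg adjusted p no higher than 0.05 and a change of 2-fold or more, were 5 T2Plus-biased and 5 T2-biased sisters, a count that describes the members and tests nothing, since the same contrast chose them. Over all unigenes tested 7.22% were called higher and 6.3% lower in T2Plus. Without any 1 of the T2Plus replicates 3 T2Plus-biased and 3 T2-biased sisters were called. DN59745_c0_g3, DN98492_c0_g1 and DN98492_c0_g2 had too few samples at 1 FPKM to be tested.

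The swap size, the log2 change of the T2Plus-biased sister minus that of its partner, had a median of 4.51 over the 8 clusters and ran from 3.26 in DN66_c1 to 9.85 in DN31422_c0. Every size depends on the 1 FPKM added before the logarithm, which narrows the changes of low sisters, and with 0.1 FPKM added the median was 5.66. For the 3 clusters with a member at 0 in a whole line no size could be given without such an addition. Over the 5 clusters with both members above 0 in both lines the median was 3.54 and the highest 5.19, in DN7915_c0. Outside the 8 clusters the median distance between the most and least T2Plus-biased sister was 0.81, a gap that the rule itself opened.

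The more abundant sister of the pair differed between the lines in 7 of the 8 clusters, by line means, and in every sample of both lines in 4 of them, DN31422_c0, DN3327_c0, DN66_c1 and DN7915_c0. Counting all unigenes of a cluster, the leading one differed between the lines in 6 of the 8, since in DN31422_c0 the non-member DN31422_c0_g1 led in both. It differed in 23.3% of the 528 clusters. Opposite changes make a change of leader likely, so this share too is only a background.

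**Figure D2:**
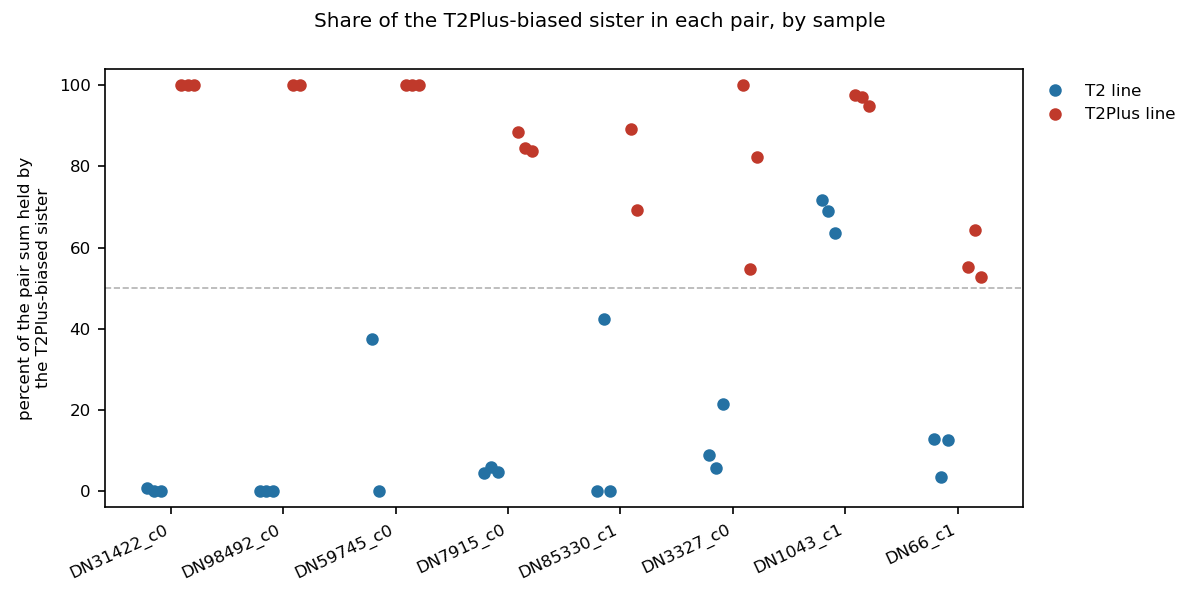
Share of the pair's summed FPKM held by the T2Plus-biased sister, in percent, for each sample of the T2 line (blue) and the T2Plus line (red), with a dashed line at equal shares. The T2Plus points lie above the T2 points in all 8 clusters and on opposite sides of the dashed line in 7 of them, and samples in which both sisters were listed at 0 have no point.

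Whether a cluster's total was kept is a further reading, built from the same values and not independent of the rule. The rule asks for sisters that change in opposite directions, and such changes partly offset each other in a sum. FPKM is scaled to the library, so a kept sum is kept relative to the rest of the library. Whether transcript per cell or per gene copy was kept was not tested. The sums changed by less than 2-fold in 7 of the 8 clusters, the exception being DN1043_c1, and in 6 without T2Plus replicate 1 or T2Plus replicate 2. That share was 79.5% over the 528 clusters, so keeping the total within this limit was usual for clusters of sisters. Within a log2 change of 0.5 there were 5 of the 8, DN31422_c0, DN3327_c0, DN59745_c0, DN7915_c0 and DN98492_c0, against 56.6% of the 528. In DN31422_c0 that sum is mostly the non-member DN31422_c0_g1, and the members alone went from 22.3 FPKM in T2 to 42.9 FPKM in T2Plus.

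Only for some of the 8 clusters was the total known well. The sums did not overlap between the lines in 2 of the 8 clusters, DN1043_c1 and DN66_c1, against 52.5% of the 528. Among the 6 that overlapped, in DN59745_c0, DN85330_c1 and DN98492_c0 a sample with a sum of 0 or below 1 FPKM made that overlap wide. In DN3327_c0 the T2Plus sums alone ran from 5.19 to 14.4 FPKM. The closest match of totals with a narrow spread was that of DN7915_c0, at a log2 change of -0.10.

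The total had a lower mean in T2Plus in 7 of the 8 clusters, with a median log2 change of -0.15, but in only 4 of them without T2 replicate 2 or with each sample rescaled to the same summed FPKM. The median over the 528 clusters was -0.10, with an interquartile range from -0.51 to 0.34, and all 8 values but those of DN1043_c1, DN66_c1 and DN85330_c1 lay inside that range. With the rescaling the median of the 8 was -0.0032, so no direction of the totals is read from these counts. DN1043_c1, the only cluster whose T2Plus sums all lay above its T2 sums, was also the only one whose pair had the same leading member in both lines.

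**Figure D3:**
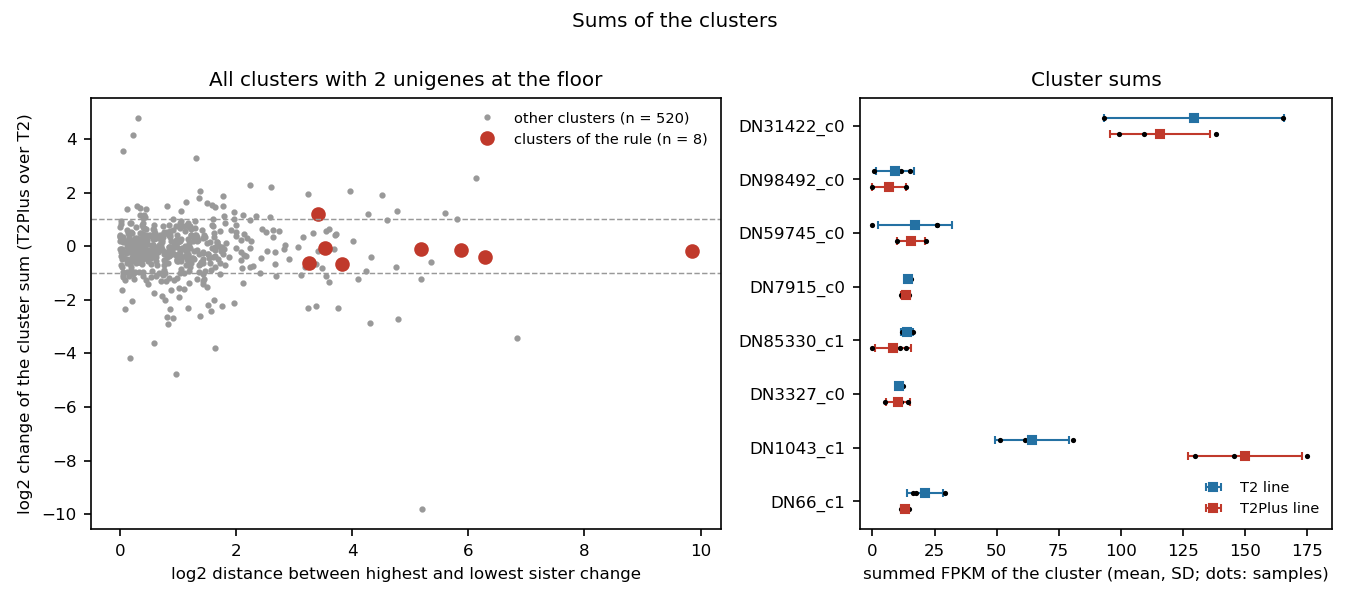
Left, the log2 change of the cluster sum against the log2 distance between the most and least T2Plus-biased sister, for the 8 clusters (red) and 520 others with at least 2 unigenes at the floor (grey), with dashed lines at a 2-fold change. Right, the summed FPKM of each of the 8 clusters by line, with the mean (square), its SD (bar) and the samples (dots), where only DN1043_c1 and DN66_c1 have sums that do not overlap.

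The rule set a floor on the level but did not use the number of sisters and isoforms or the spread between replicates, and these are given beside the background. Of the 8 clusters 6 held exactly 2 unigenes and 2 held 3, against 92.6% with exactly 2 among the 528, where the largest held 4. A single isoform made up 15 of the 16 members, against 91.7% of the unigenes of those clusters. The mean FPKM in the higher line had a median of 12.9 over the members, from 6.67 for DN85330_c1_g2 to 145 for DN1043_c1_g3, against 12.9 over all unigenes at the floor and 20.7 over those in the 528 clusters. The coefficient of variation in the higher line had a median of 38.4% over the members and 35.8% over all unigenes at the floor, with 9 members above the latter.

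Most sisters past the threshold stood alone or had the same direction. Of the 528 clusters 75 held at least 1 unigene past the threshold toward T2Plus and 83 at least 1 toward T2. Counted as unigenes, 7.33% of their 1078 unigenes at the floor passed toward T2Plus and 9.74% toward T2. The corresponding shares of all 19964 unigenes at the floor were 20.7% and 18.1%. In 34 clusters at least 2 unigenes passed, and these were in opposite directions in the 8 described here, all T2Plus-biased in 4 and all T2-biased in 22. A further 33 clusters had sisters at least 3.26 apart, the smallest swap size of the 8, but with a single direction past the threshold, and in 20 of these the sisters lay on opposite sides of 0.

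Clusters just outside the rule also held sisters that changed in opposite directions, 3 of them with a sister annotated by the study. The lead was not always exchanged. By line means the same sister was the most abundant in both lines in DN10893_c0, DN8757_c0 and DN17594_c0. DN1561_c2_g1, at a log2 change of 1.49, stood at 53.9, 13.2 and 33.3 FPKM in T2 and at 108, 83.1 and 95.2 FPKM in T2Plus. Its sister DN1561_c2_g2, which the study's annotation places in phenylpropanoid biosynthesis, the route to lignin and flavonoids, stood at 35.8, 56.5 and 41.2 FPKM in T2 and at 10.2, 8.36 and 7.89 FPKM in T2Plus, a log2 change of -2.21. Neither overlapped between the lines.

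DN10893_c0_g1, annotated to purine metabolism and to the metabolism of alanine, aspartate and glutamate, stood at 29.3, 34.4 and 35.2 FPKM in T2 and at 6.40, 7.67 and 6.38 FPKM in T2Plus. Its sister DN10893_c0_g2, at a log2 change of 1.48, was listed at 5.09, 0 and 0 FPKM in T2 and at 8.53, 5.39 and 5.61 FPKM in T2Plus. In DN8757_c0 the sister g4 stood at 29.0 ± 2.42 FPKM in T2 and 3.02 ± 0.550 FPKM in T2Plus, while g2 stood at 8.55 ± 2.08 and 20.9 ± 1.69 FPKM, a log2 change of 1.20. Its most abundant sister, DN8757_c0_g3, annotated to anion homeostasis, stood at 85.4 ± 13.3 and 28.7 ± 3.80 FPKM.

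On the other side of the threshold, DN17594_c0_g2 had a log2 change of -1.34, from 158 ± 29.6 FPKM in T2 to 62.1 ± 1.56 FPKM in T2Plus, beside DN17594_c0_g3 at 10.1 ± 7.12 and 39.0 ± 8.19 FPKM. In DN18643_c1 the T2-biased sister stood at -1.28 and its partner was listed at 0 but for 66.6 FPKM in T2Plus replicate 1, and in DN670_c1 they stood at -0.91 and 2.41. Just inside the rule lay DN85330_c1_g2 at 1.51, DN66_c1_g3 at 1.63 and DN1043_c1_g3 at 1.69 on one side, and DN3327_c0_g1 at -1.57, DN66_c1_g2 at -1.63 and DN1043_c1_g2 at -1.72 on the other.

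The samples that a choice did not use give the only reading of direction apart from the rule. When the rule was applied to 2 samples of each line and the remaining T2 and T2Plus samples of the same number were then compared, 12, 8 and 12 clusters were chosen without replicates 1, 2 and 3. Both directions were kept in the left-out samples by 8, 5 and 5 of them, 18 of 32 choices or 56.2%. Kept meant the sign alone, and at a log2 change of at least 1 either way it was 13 of 32. Of the chosen, 6, 5 and 6 were among the 8, which had been taken with the left-out samples in view. Among the rest only DN10893_c0 and DN1561_c2 (without replicate 1) and DN30629_c0 (without replicate 3) kept both, the last with its T2-biased sister at -0.028. The sisters of the other 508 to 526 clusters, ordered by the same 4 samples, kept opposite directions in 34.2% to 36.6%. With 1 left-out sample per line these shares carry no test, and the 3 choices share samples and clusters.

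The clusters differed in how they came through. DN31422_c0 and DN7915_c0 were chosen in all 9 ways of leaving out 1 sample of each line and kept both directions in every one. DN1043_c1 and DN66_c1 were chosen in 6 and DN3327_c0 in 4 of the 9, and all kept both directions each time. DN59745_c0 kept them in 5 of 7, DN98492_c0 in 3 of 6 and DN85330_c1 in 1 of 4. For DN98492_c0 and DN85330_c1 the directions were lost whenever T2Plus replicate 3, with both sisters at 0, was the T2Plus sample left out of the choice. The 8 clusters had been taken with all samples in view, so these counts describe their spread and are not independent of the rule.

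**Figure D4:**
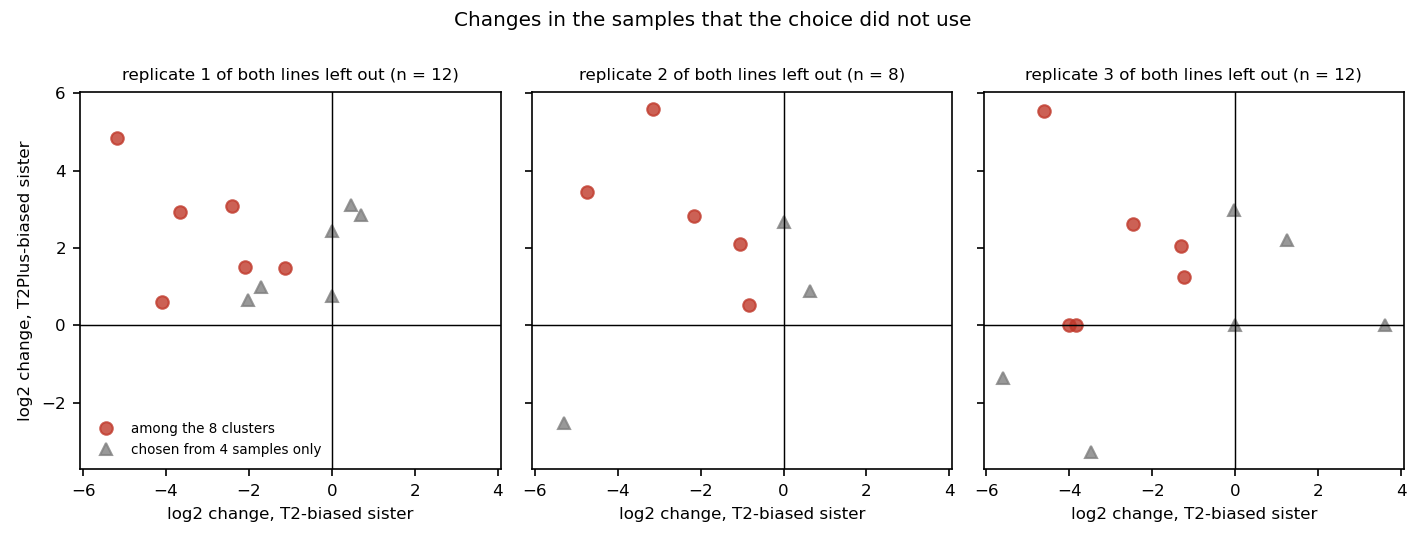
Log2 change of the T2Plus-biased sister against that of the T2-biased sister in the T2 and T2Plus samples left out of the choice, with 1 panel for each left-out replicate number and 1 point for each cluster chosen from the other 4 samples (red circles, among the 8 clusters; grey triangles, chosen from those 4 samples only). Points to the left of and above both zero lines kept both directions, which were 8 of 12, 5 of 8 and 5 of 12.

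Leaving out 1 sample moved the members of the list more than its length. The rule then gave 8 to 11 clusters, of which 5 to 8 were among the 8. DN31422_c0, DN7915_c0 and DN59745_c0 were found each time. DN85330_c1 was lost without T2 replicate 1, T2 replicate 3, T2Plus replicate 1 or T2Plus replicate 2, and DN3327_c0 without T2 replicate 2 or T2Plus replicate 1. DN66_c1 was lost without T2 replicate 2, DN1043_c1 without T2Plus replicate 1 and DN98492_c0 without T2Plus replicate 2.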

How the data were processed

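Reads of 3 T2 and 3 T2Plus samples were trimmed with Trimmomatic 0.36 and examined with FastQC 0.11.5 (both named in the submitters' processing notes), and assembled with Trinity at a k-mer of 25. Transcripts were then clustered and the longest of each cluster taken as a unigene. The authors estimated FPKM with RSEM, scaled it by TMM per the file headers, and deposited 1 value per isoform and sample. For Trinity and RSEM no version was given in the sources used here, and whether RSEM's FPKM or TPM output is the base of the deposited values is not settled by the file. The paper's own test of the lines was DESeq, which needs counts and was not run here.

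Unigene values were the sums of their isoforms, and log2 changes were taken between line means after adding 1 FPKM, which understates changes of low unigenes. An exact 0 can be a failed estimate, so such unigenes are said to be listed at 0. The unigenes that reached 1 FPKM in 3 or more of the 6 samples were fitted with limma 3.58.1 in R 4.3.3, with a trend of the variance over mean log2(FPKM + 1) and Benjamini-Hochberg adjustment. The file gives no read totals, and relative depth was taken from the steps of low values. Other pseudocounts, floors, thresholds, scalings, filters, cluster levels and samples left out were tried as alternatives. Python 3.11.15, numpy 2.4.6, pandas 2.3.3 and matplotlib 3.10.9 were used.

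The members and lists were chosen with earlier results of these data known. Named unigenes were the members of the 10 clusters with the widest swap or highest sum, which took in all 8, those with an annotation at hand, and the 3 nearest the threshold on each side. Swiss-Prot names were at hand for 457 unigenes, 2 of them members, and no member stood in the study's GO or KEGG lists.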

Additional observations from a re-analysis of the deposited data

How the results depend on the processing

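The number of clusters depended on the rule's settings. It was 8 as reported, 20 with a floor of 1 FPKM and 4 with a floor of 10, 18 at a log2 change of at least 1 and 3 at one of at least 2, and 30 when clusters were taken up to the DN number. Rescaling each sample to a sum of 1000000, which raises every value and so weakens the floor and the pseudocount, gave 19, with all 8 among them. Quantile normalization gave 8, of which 6 were shared, and leaving out 1 sample gave 8 to 11. The median swap size was 5.66 with a pseudocount of 0.1 FPKM, and the leading sister differed in 4 clusters when every sample of both lines had to show it. The median log2 change of the sums lay between -0.23 and -0.0032 under all alternatives run. Sums within 2-fold numbered 6 to 7 with 1 sample left out. Sums lower in T2Plus numbered 7 as reported, 4 after rescaling and 4 to 6 with 1 sample left out.

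In limma 3 T2Plus-biased sisters were called with a mean of at least 5 FPKM as the filter. Leaving out 1 sample gave 3 to 5 T2Plus-biased and 3 to 5 T2-biased calls. Same-numbered samples did not deviate together (r from -0.0665 to 0.0366 over unigenes), which cannot tell whether they shared plants or handling. A fit with a replicate block called 4 T2Plus-biased and 3 T2-biased sisters. The alternatives for the leading sister and for sums lower in T2Plus under other scalings and samples left out were chosen after seeing the data, and for the leading sister gave 7 each time. Rescaling moved the median log2 change of all unigenes tested from 0.10 to 0.23. Depth limits the sisters listed at 0 or resting on a few reads.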
